A study of Homo sapiens with 6 samples.

Results

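The transcripts described here are those that GENCODE 29 annotates as targets of nonsense-mediated decay, in a human myeloma line with less HDAC1. They were chosen by annotation alone, from the transcript type that GENCODE 29 gives each identifier in the deposited tables, and no measured value entered the choice. They numbered 13406 of 173259 transcripts listed and lay in 6716 genes. The annotation holds 15283 transcripts of this type in all.

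The cells were RPMI 8226, an established line from a human multiple myeloma, and total RNA had been sequenced. A lentivirus had brought in either shLuc, a hairpin against luciferase that serves as the control, or shHDAC1, a hairpin against the class I histone deacetylase HDAC1. Both groups had been transduced, kept in puromycin for 48 h and grown with 10% fetal bovine serum, so the comparison is between hairpins within 1 line and holds no untransduced cells. Each group had 3 libraries, described as transductions in triplicate, and p-values measure only the spread between these 3 against 3 libraries.

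Nonsense-mediated decay removes mRNAs whose stop codon lies too far upstream of the last splice junction. A protein complex left at each junction, the exon junction complex, is normally stripped off by the first translating ribosome, and a complex that remains downstream of a stop recruits the helicase UPF1 and its partners, after which the endonuclease SMG6 or adaptors such as SMG5 start the destruction of the RNA. Many genes, those of splicing factors and ribosomal proteins among them, make such transcripts by including a poison exon that carries a stop codon, and thereby lower their own output. The annotation marks transcripts by the position of their stop codon. It does not show that a transcript is degraded in these cells, and the series holds no library in which the pathway was blocked. A TPM value is a level at steady state, so a change in synthesis or splicing and a change in decay cannot be told apart.

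The stop codons of the transcripts that the later results turn on are printed here with the 27 coding bases before them, from the GENCODE 29 transcript sequences on GRCh38, 5′ to 3′, with the stop codon in capitals. The first 7 were higher with shHDAC1 and the last 6 were lower, and they were picked after their values had been seen.
CTPS1-204: gtcacgagcctgcttttctcccctgtcTGA
ATP6V0D1-212: cattcaatttggaggacttcattctggTGA
TMEM120A-213: gacctcactgtggttctggcagcttttTAA
ZNF692-213: gacgggctccatgatttggataacaacTAA
PLSCR1-205: agatcagatactgattcatcagcaaatTGA
LGALS9-205: catgcctttccagaaggggatgcccttTGA
CFL2-203: gaggaagcaaagcagatcttgggctccTGA
VPS51-213: gaacagtttctggtgcaggtgaagcacTAG
SMC4-211: ccagccaccgccgcagagactgcaaggTGA
ELP6-206: gcgggagcgtgggcagcttgtgttcctTGA
PLEKHA3-203: ggtgacaactttggaggggaccaccctTGA
SENP2-202: ggagaggtaataaatctcctaatggaaTAA
NCBP2-205: gtgacaatgaagaacaagaaaaattacTGA

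In CTPS1-204 the stop codon followed 265 annotated coding bases and lay in exon 3 of 12. Between it and the last junction lay 791 bases of spliced RNA. A length of 265 bases is not a whole number of codons, so part of the frame upstream is not annotated. The same holds for VPS51-213 (214 bases), ATP6V0D1-212 (212 bases) and ZNF692-213 (235 bases). Exons are counted here within each transcript as annotated. That exon, at chr1:41000973-41001117 on the plus strand of GRCh38, overlapped an exon of a protein-coding transcript of the gene, but the stop itself lay outside protein-coding exons. In VPS51-213 the stop lay in exon 1 of 5, at chr11:65109291-65109591 on the plus strand, also outside protein-coding exons. In ATP6V0D1-212 it lay in exon 1 of 6, at chr16:67458964-67459180 on the minus strand, and in ZNF692-213 in exon 3 of 5, at chr1:248850863-248850947 on the minus strand. Neither of these exons overlapped an exon of a protein-coding transcript. In LGALS9-205, by contrast, the stop lay in exon 3 of 10, at chr17:27640643-27640773 on the plus strand, inside sequence that other transcripts of the gene translate. In SENP2-202 it lay inside such sequence in exon 4 of 16, at chr3:185600765-185600855 on the plus strand, with 1325 bases before the last junction.

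Over all transcripts of the type, 13393 had an annotated stop codon, which was TGA in 59.1%, TAA in 21.6% and TAG in 19.3%. In 13250 (98.9%) it lay more than 50 bases before the last junction, the distance that is part of how the type is assigned, and the median distance was 297 bases. In 6805 transcripts the stop lay within the coding sequence of a protein-coding transcript of the gene. In 4587 it lay outside every exon of the gene's protein-coding transcripts. Of these, 3196 had it in an exon that overlapped no such exon, with a median length of 121 bases, and 1391 in an exon that overlapped one. Another 1326 ended at the same stop codon as a protein-coding transcript, and the splicing downstream of it was not compared. The median transcript was 948 bases long, against 1413 bases for the 35523 protein-coding transcripts of the same genes, with a median of 7 exons in each set.

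**Figure D1:**
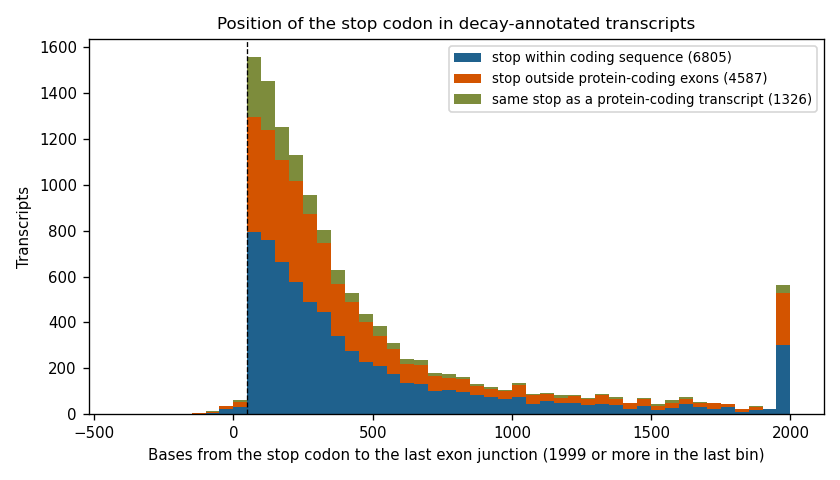
The horizontal axis gives the bases of spliced RNA from the stop codon to the last exon junction, and bars count transcripts annotated to nonsense-mediated decay in the 3 largest classes of stop position, with a dashed line at 50 bases. Nearly all transcripts, 13250 of 13393 over all classes, lie to the right of the line, with a median of 297 bases.

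HDAC1 had 10 matched transcripts and 0 of this type. Summed over its transcripts, HDAC1 stood at 87.9 ± 2.63 TPM in control libraries and at 29.3 ± 2.40 TPM after shHDAC1 (SD, n = 3). These groups lay apart, and the gene was 1.56 lower on the scale of log2(TPM + 1). Summed plasma cell and myeloma markers reached 6442 to 9555 TPM per library and were highest with shLuc, while summed markers of T cells, monocytes, fibroblasts and erythroid cells stayed at 0 to 2.82 TPM. In such bulk RNA, fewer cells of a kind and less RNA per cell cannot be told apart. TPM does not keep the number of reads, so the depth is unknown and no counting error is given.

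Transcripts annotated to decay made up a small part of the RNA, and this part differed little between the hairpins. They held 5.59%, 5.55% and 5.52% of the matched TPM in the shLuc libraries and 5.44%, 5.49% and 5.46% in the shHDAC1 libraries. The groups did not overlap, but the difference, from 5.55% ± 0.035 to 5.46% ± 0.024 (SD, n = 3), was 0.0890 percentage points. An exact two-sided permutation test gave p = 0.1, the smallest that 3 against 3 libraries allow, so the design cannot place this difference below 0.05. Retained-intron transcripts held 8.77% ± 0.093 with shLuc, and with shHDAC1 they held 8.78% ± 0.22 (SD, n = 3; exact permutation p = 1.0), and processed transcripts 9.29% ± 0.21 and 9.14% ± 0.18 (exact permutation p = 0.4).

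Most of these transcripts were scarce. Of the 13406, 3865 were listed at 0 in every library, 3583 were above 0 in all 6 and 5958 in some of them. Between 3246 and 3521 reached 1 TPM in a library. The median share of a gene's TPM held by a single transcript was 6.93%, with quartiles of 2.60% and 16.2%, over 4391 transcripts with a mean of at least 0.5 TPM in genes with a summed mean of at least 5 TPM. In 2674 of them the share was under 10%, and in 121 (2.76%) it was at least 50%.

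The most abundant belonged to genes of the ribosome and of other highly expressed housekeeping proteins. RPS2-212, from the gene of a small-subunit ribosomal protein, stood at 2223, 2070 and 2133 TPM with shLuc and 2519, 2718 and 2387 TPM with shHDAC1. It held 54.6% ± 2.60 and 57.0% ± 5.26 of the TPM of RPS2 (SD, n = 3). These lay apart, but the difference of 0.25 ± 0.06 (log2, SE) was not called (adjusted p = 0.11, limma). RPL13A-210, from a large-subunit gene, stood at 1333, 1198 and 1400 TPM with shLuc and at 1335, 1349 and 1490 TPM with shHDAC1, and these groups overlapped.

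The next in order were RPS3-218, RPL27A-212, B2M-201, RPL14-204, UQCRH-205, HINT1-209, CALM2-203 and RPL18-206. These 10 held 18.1% to 20.1% of all TPM of the type in a library, and 0 of the 10 were called different. B2M encodes the light chain of MHC class I. B2M-201 stood at 1059, 876 and 891 TPM with shLuc and 938, 912 and 907 TPM with shHDAC1, with a difference of -0.03 ± 0.08 (log2, SE). The protein-coding B2M-202 stood at 451, 877 and 546 TPM with shLuc and at 1166, 1552 and 1068 TPM with shHDAC1. The groups of B2M-202 did not overlap, and they were not called different (adjusted p = 0.11, limma).

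Several genes had most of their TPM in a transcript of this type. MBD2, a reader of methylated CpG, had 81.2% ± 1.80 of its TPM in MBD2-203 with shLuc and 81.0% ± 0.989 with shHDAC1 (SD, n = 3). SMDT1, a small regulator of the mitochondrial calcium uniporter, had 85.8% ± 0.591 and 88.2% ± 0.881 in SMDT1-202. MRPS14, a mitochondrial ribosomal protein gene, had 91.3% ± 0.275 and 90.3% ± 1.23 in MRPS14-201. Whether the estimate divided reads rightly among the overlapping transcripts of a gene cannot be read from TPM and was not tested.

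Single transcripts were then compared by limma on log2(TPM + 1), where a transcript was called at a Benjamini-Hochberg adjusted p below 0.05 over all 39716 transcripts that reached 1 TPM in at least 3 libraries. Of the 13406, 3435 in 2456 genes passed that filter and 9971 did not; 33 passed only through the shLuc libraries and 47 only through the shHDAC1 libraries. With shHDAC1, 30 were called higher (0.873%) and 39 lower (1.14%), where the background over all transcripts tested was 3.33%, with 1.83% higher and 1.51% lower. The median difference was 0.01, against 0.03 over all transcripts tested (log2). With median centring of the libraries, 29 were called higher and 59 lower. Of the 80 that passed through 1 group only, 11 were called higher and 12 lower. They passed because that group was high, so a difference was built into their test, and their values below are a description. Among the 3355 that passed through libraries of both groups, a split made after the values had been seen, 19 were called higher (0.566%) and 27 lower (0.805%), where 2.79% of all 38827 transcripts that passed in this way were called, 1.52% higher and 1.27% lower.

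The members were also scarcer and more variable than most transcripts tested. Their median level was 3.37 TPM against 4.38 TPM over all tested, and the median SE of their difference was 0.305 against 0.248 (log2). The median SD within a group was 0.396, against 0.254 for protein-coding transcripts. Among transcripts with a mean of at least 5 TPM, 30 of 1325 were called higher and 44 lower (2.26% and 3.32%), beside 4.41% and 4.14% of all 18494 at that level. No overlap between groups was seen in 706 of the 3435 (20.6%), beside 25.6% of all transcripts tested.

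Leaving out a library reduced the calls. The count of higher calls fell from 30 to between 4, without shHDAC1 replicate 1, and 14, without shLuc replicate 2. The count of lower calls fell from 39 to between 3, without shLuc replicate 1 or shLuc replicate 3, and 15, without shHDAC1 replicate 1. Each of the other libraries also lowered both counts by more than 1.5 times when left out. Of the 69 called transcripts, AC015688.4-201, CDC37-203, LGALS9-205 and MBD2-203 were called in all 6 such fits, and 39 were called in none. These calls are therefore given below with the values of every library.

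The called transcripts fell into those that were measured in every library and those that were close to 0 in some. In 47 of the 69, all 6 libraries were at 0.1 TPM or more, a limit set after the values had been seen. Of these 47, 21 were higher and 26 were lower with shHDAC1, and in 44 the summed TPM of the gene was called in the same direction. In the other 22, at least 1 library was under 0.1 TPM; 9 were higher and 13 lower, and the gene was called in the same direction in 6. Over all 69 the gene was called in the same direction in 50, which is 72.5%, beside 85.2% of all 1324 called transcripts. A gene's sum includes the transcript itself, so the gene's other transcripts are given beside the values below.

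**Figure D2:**
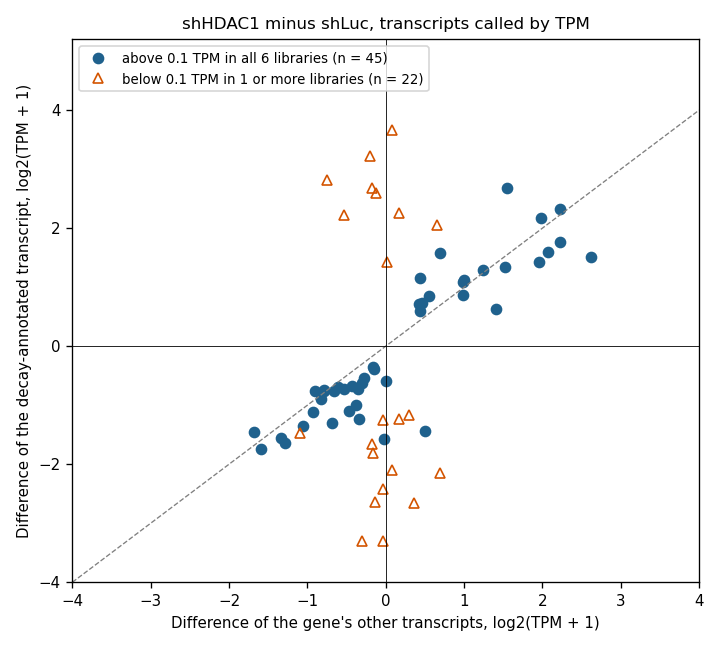
Each point is a called transcript annotated to decay, with its own difference on the vertical axis and the difference of its gene's other transcripts on the horizontal axis, both on the scale of log2(TPM + 1) and the dashed line marking equality. Filled points, at 0.1 TPM or more in all libraries, have the same sign as the rest of the gene in 43 of 45, and open triangles, near 0 in some library, in 12 of 22; 2 genes with no other transcript are not drawn.

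LGALS9 encodes a galectin, a secreted sugar-binding protein. LGALS9-205 stood at 10.3, 9.64 and 9.16 TPM with shLuc and 55.5, 46.1 and 57.1 TPM with shHDAC1. Every shHDAC1 library was more than 4 times as high as every shLuc library. The difference was 2.33 ± 0.11 (log2, SE; adjusted p = 0.0010, limma), and the other transcripts of the gene differed by 2.23. It held 37.4% ± 3.90 of LGALS9 in the shLuc group and 39.7% ± 1.74 in the shHDAC1 group (SD, n = 3). LGALS9 has near-identical copies in the genome, and LGALS9-205 overlaps AC015688.4-201, a transcript annotated across LGALS9 and the neighbouring KSR1. That transcript stood at 19.9, 21.0 and 18.3 TPM with shLuc and at 93.4, 78.4 and 93.2 TPM with shHDAC1, so the division of reads between these is uncertain.

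The list of interferon-stimulated genes described below contributed 4 of the 30 increases. PLSCR1 encodes an interferon-induced phospholipid scramblase, and PLSCR1-205 stood at 8.47, 1.96 and 3.27 TPM with shLuc and at 39.1, 22.1 and 33.3 TPM with shHDAC1 (2.68 ± 0.46, log2, SE; adjusted p = 0.042, limma). The shLuc libraries differed among themselves by more than 4 times, yet the groups did not overlap. PLSCR1-205 held 12.7% ± 9.55 of the gene with shLuc and 25.3% ± 7.74 with shHDAC1 (SD, n = 3). Of the gene's other transcripts of the type, PLSCR1-204 went from 18.8% ± 2.98 to 11.9% ± 2.89 and PLSCR1-215 from 23.3% ± 2.60 to 13.6% ± 4.12. PLSCR1-216 held 1.14% ± 0.267 and 2.02% ± 1.03. How reads were divided among these overlapping transcripts was not tested. PARP12-205, from the gene of an interferon-induced mono-ADP-ribosyltransferase, stood at 6.92, 5.84 and 5.59 TPM with shLuc and at 17.9, 15.8 and 15.5 TPM with shHDAC1, with 35.6% ± 2.33 and 37.4% ± 0.840 of the gene (SD, n = 3). DHX58-205, from the gene of the RNA sensor LGP2, stood at 1.21, 0.818 and 1.16 TPM with shLuc and at 6.74, 3.46 and 5.99 TPM with shHDAC1. XAF1-216, from a gene that promotes cell death, stood at or below 0.656 TPM with shLuc and at or above 3.15 TPM with shHDAC1, and passed the filter through the shHDAC1 libraries only. The call of PARP12-205 was lost without shHDAC1 replicate 1 (adjusted p = 0.052, limma), that of PLSCR1-205 without any library other than shLuc replicate 1 (up to 0.133), that of DHX58-205 without any other than shHDAC1 replicate 2 (up to 0.125), and that of XAF1-216 in each fit that tested it (up to 0.072).

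The list of 62 interferon-stimulated genes held 52 transcripts of the type in 22 genes. Of these transcripts 17 were tested, 4 were called higher and 0 lower, with a median difference of 1.29 (log2). Over all transcripts tested 1.83% were called higher, and XAF1-216, among these 4, passed the filter through the shHDAC1 libraries only. The genes themselves were called higher in 59 of 61 tested, beside 16.9% of all genes tested. As a share of their genes, the list's transcripts were lower in 15 of 21 by the ratio with 0.5 TPM added, with a median of -0.74 (log2) against -0.01 over all transcripts tested. At an unadjusted p below 0.05 stood 5 of the 21, beside 7.61% of all transcripts tested. The count depended on the amount added, with 17 of 21 lower and a median of -1.05 at 2 TPM, and 11 of 21 and -0.16 at 0.1 TPM. With none added, 11 of 21 held a lower percent with shHDAC1 and 10 a higher one, with a median difference of -0.06 percentage points. Summed over the list, transcripts of the type held 1.87% ± 0.26 (shLuc) and 1.25% ± 0.11 (shHDAC1) of the list's TPM (SD, n = 3), a sum in which abundant transcripts weigh most. The list's TPM takes in all 62 genes, of which 22 had a transcript of the type. This percent therefore also falls when genes without such a transcript rise, which was not separated from a change of share within genes. The shLuc libraries held 2.17%, 1.72% and 1.73% and the shHDAC1 libraries 1.36%, 1.15% and 1.22%, so the groups did not overlap.

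Other increases came with their genes. CDC37, a co-chaperone of protein kinases, had CDC37-203 at 16.9, 16.4 and 13.7 TPM with shLuc and 38.5, 39.1 and 45.7 TPM with shHDAC1 (1.34 ± 0.12, log2, SE; adjusted p = 0.0070, limma), and its other transcripts differed by 1.52. CFL2-203, from the gene of the actin-severing cofilin of muscle, stood at 0.937, 0.965 and 0.521 TPM with shLuc and at 7.86, 7.88 and 5.81 TPM with shHDAC1, and passed the filter through the latter only. In both, every shHDAC1 library lay above every shLuc library. MAZ-204, from a zinc finger transcription factor gene, rose from 28.1, 26.6 and 35.4 TPM to 66.9, 71.7 and 60.9 TPM, with its other transcripts at 124 ± 7.58 and 250 ± 22.3 TPM (SD, n = 3). MRPL21-206, from a mitochondrial ribosomal protein gene, rose from 38.3, 29.3 and 33.1 TPM to 68.7, 68.6 and 78.4 TPM. The call of MAZ-204 held in 1 of the 6 fits that left out a library (adjusted p up to 0.077) and that of MRPL21-206 in 2 (up to 0.061).

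SQSTM1, which encodes the autophagy receptor p62, had SQSTM1-212 at 22.1, 15.8 and 19.6 TPM with shLuc and 86.1, 41.3 and 57.1 TPM with shHDAC1. The groups lay apart, though the shHDAC1 libraries spread widely, and the other transcripts of the gene stood at 186 ± 7.15 and 303 ± 21.3 TPM (SD, n = 3). The call was lost without any 1 library (adjusted p up to 0.131, limma). DIABLO-202, from the gene of a mitochondrial activator of cell death, rose from 23.5, 24.5 and 26.5 TPM to 43.8, 49.3 and 45.1 TPM and held 50.6% ± 3.95 and 48.5% ± 4.24 of the gene (SD, n = 3). A second gene entry of the same name overlaps it on the same strand, so its value is uncertain, and its call was lost without shLuc replicate 1 (0.057).

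Among the decreases, MBD2-203 stood at 84.7, 83.6 and 73.6 TPM with shLuc and at 44.0, 41.7 and 43.1 TPM with shHDAC1 (-0.89 ± 0.08, log2, SE; adjusted p = 0.0067, limma). The protein-coding MBD2-201, which held nearly all the rest of the gene's TPM, stood at 16.8, 19.9 and 17.6 TPM and at 9.97, 10.2 and 9.60 TPM, with a difference of -0.80 ± 0.10 (log2, SE). Both transcripts were lower in every shHDAC1 library than in any shLuc library. SENP2, a protease that removes SUMO, had 2 called transcripts of the type. SENP2-202 stood at 24.1, 26.4 and 25.8 TPM with shLuc and at 8.84, 8.10 and 5.89 TPM with shHDAC1, and SENP2-207 at 18.1, 13.4 and 16.2 TPM and at 5.03, 3.50 and 5.89 TPM. The protein-coding SENP2-201 differed by -1.35 ± 0.12 (log2, SE), beside -1.63 ± 0.16 and -1.55 ± 0.21 for these. The call of SENP2-202 was lost without shLuc replicate 1 (adjusted p = 0.054), and that of SENP2-207 without any 1 library (up to 0.098).

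PLEKHA3, which encodes a lipid-binding protein of the Golgi, had PLEKHA3-203 at 12.6, 12.8 and 9.88 TPM with shLuc and 2.57, 3.60 and 2.27 TPM with shHDAC1. It held 50.2% ± 6.44 and 46.8% ± 15.1 of the gene (SD, n = 3). FTH1-208, from the gene of the ferritin heavy chain, fell from 252, 312 and 276 TPM to 163, 169 and 160 TPM, with 15.8% ± 1.95 and 17.0% ± 1.23 of the gene. ADAM10-202, from the gene of a membrane protease that sheds cell-surface proteins, fell from 55.7, 58.8 and 57.9 TPM to 37.0, 31.9 and 31.6 TPM, with 31.4%, 25.2% and 27.5% of the gene with shLuc and 26.5%, 27.3% and 30.8% with shHDAC1. Each of these shares differed by less than the spread between libraries. Leaving out 1 library ended the call of PLEKHA3-203 in 4 of 6 fits, that of FTH1-208 in 4 and that of ADAM10-202 in 5 (adjusted p up to 0.077, 0.066 and 0.070, limma).

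GANAB and PRKCSH encode the catalytic and regulatory subunits of glucosidase II, which trims N-glycans in the endoplasmic reticulum, and each had a called transcript. GANAB-211 fell from 189, 195 and 194 TPM to 145, 143 and 152 TPM. PRKCSH-203 fell from 24.9, 26.2 and 25.1 TPM to 16.6, 16.1 and 16.9 TPM, while the other transcripts of PRKCSH stood at 294 ± 25.4 and 295 ± 35.5 TPM (SD, n = 3). The share of PRKCSH held by the transcript was 7.99% ± 0.677 with shLuc and 5.35% ± 0.523 with shHDAC1, and these groups did not overlap. Both calls were lost without any 1 library (adjusted p up to 0.093 and 0.096, limma).

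Most called transcripts whose gene was not called in the same direction were near 0 in at least 1 library. CTPS1 encodes CTP synthase. CTPS1-204 was listed at 0, 1.88e-05 and 0 TPM with shLuc and at 15.6, 7.44 and 13.5 TPM with shHDAC1. It passed the filter through the shHDAC1 libraries only, as did ATP6V0D1-212, ZNF692-213, UBXN7-205 and TMEM120A-213. The other transcripts of the gene stood at 132 ± 4.52 and 140 ± 13.6 TPM (SD, n = 3). A retained-intron transcript, CTPS1-210, was listed at 0 in all 3 shLuc libraries and at 9.91, 8.13 and 13.3 TPM with shHDAC1. The protein-coding CTPS1-202 stood at 66.5, 63.5 and 62.3 TPM and at 72.0, 64.6 and 69.4 TPM, and these overlapped.

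ATP6V0D1 encodes a subunit of the proton pump of lysosomes. ATP6V0D1-212 was listed at 0 in every shLuc library and at 5.09, 9.66 and 11.7 TPM with shHDAC1. ZNF692-213, from a zinc finger gene, was listed at 0 with shLuc and at 4.48, 6.65 and 5.32 TPM with shHDAC1, and UBXN7-205, from the gene of an adaptor for ubiquitylated proteins, at 0 and at 4.02, 4.34 and 3.10 TPM. The gene sums of ATP6V0D1, ZNF692 and CTPS1 were not called. That of UBXN7 was called higher, by 0.51 (log2; adjusted p = 0.014, limma), with a difference of 0.17 in its other transcripts. TMEM120A-213 was listed at 0 with shLuc and at 4.06, 4.48 and 11.6 TPM with shHDAC1. The call of ATP6V0D1-212 was lost without shLuc replicate 1 (adjusted p = 0.054, limma) and that of TMEM120A-213 in each of the 3 fits that tested it (up to 0.098).

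The reverse was seen in VPS51, which encodes a subunit of a complex that tethers vesicles at the Golgi. VPS51-213 stood at 6.87, 9.43 and 10.8 TPM with shLuc and was listed at 0 in all 3 shHDAC1 libraries. It passed the filter through the shLuc libraries only, as did SMC4-211 and the 6 transcripts of the next paragraph. The gene sum of VPS51 was not called. The more abundant VPS51-211, also annotated to decay, stood at 58.0, 43.6 and 63.6 TPM and at 59.9, 52.6 and 60.9 TPM, which overlapped. SMC4-211, from the gene of a condensin subunit, stood at 10.9, 16.5 and 7.77 TPM with shLuc and at or below 0.892 TPM with shHDAC1, while the other transcripts of SMC4 stood at 267 ± 45.8 and 215 ± 4.59 TPM (SD, n = 3). The gene sum of SMC4 was also called lower (-0.36, log2; adjusted p = 0.039, limma). ELP6-206, from a subunit of Elongator, stood at 5.08, 7.75 and 9.30 TPM with shLuc and at or below 1.20 TPM with shHDAC1.

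Other decreases to 0 were smaller in TPM. NTAN1-209 stood at 7.21, 2.95 and 6.42 TPM with shLuc, SNRNP25-203 at 3.11, 2.02 and 5.22 TPM and TAMM41-203 at 2.41, 2.43 and 2.72 TPM, and each was listed at 0 in all 3 shHDAC1 libraries. The gene sum of NTAN1 was called lower as well (-0.77, log2; adjusted p = 0.016, limma), with a difference of -0.14 in its other transcripts. RFC2-209, PIK3R2-204 and LRMP-214 stood at 1.55 to 10.2 TPM with shLuc and at or below 0.633 TPM with shHDAC1. Since a value of 0 in these tables can be an estimate that gave a transcript none of the reads it shares with others, a 0 is given as listed and no fold is computed from it. The calls of SMC4-211 and ELP6-206 held in 1 fit each with a library left out (adjusted p up to 0.062 and 0.103, limma), and those of NTAN1-209, SNRNP25-203, RFC2-209 and LRMP-214 in 0.

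Other transcripts changed by more than the rest of their gene or against it. NCBP2 encodes the small subunit of the nuclear cap-binding complex. NCBP2-205 stood at 20.5, 14.2 and 20.8 TPM with shLuc and at 5.02, 7.33 and 4.39 TPM with shHDAC1 (-1.57 ± 0.23, log2, SE; adjusted p = 0.027, limma). The protein-coding NCBP2-206 stood at 22.9, 24.0 and 24.3 TPM and at 36.3, 38.7 and 35.0 TPM (0.61 ± 0.08, log2, SE; adjusted p = 0.019, limma). Thus 1 transcript was lower and the other higher in every shHDAC1 library. The share of NCBP2 held by NCBP2-205 went from 21.3% ± 5.90 to 7.55% ± 2.20 (SD, n = 3). Other protein-coding transcripts of the gene did not rise with NCBP2-206. NCBP2-203 stood at 16.8 ± 9.21 and 10.2 ± 7.15 TPM, NCBP2-201 at 7.28 ± 7.82 and 0.843 ± 1.46 TPM and NCBP2-207 at 13.2 ± 1.51 and 12.6 ± 0.903 TPM. None of these was called, and how reads were divided among the transcripts was not tested. The call of NCBP2-205 was lost without any library other than shHDAC1 replicate 2 (adjusted p up to 0.115).

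PPP2R1B-211, from the gene of a scaffold subunit of protein phosphatase 2A, stood at 5.94, 6.89 and 7.63 TPM with shLuc and at 17.4, 15.9 and 15.8 TPM with shHDAC1. Its share of the gene was 6.74% ± 0.656 and 11.3% ± 0.319 (SD, n = 3), and the groups of shares did not overlap. The gene sum was called higher too, by 0.52 (log2; adjusted p = 0.00048, limma), with a difference of 0.44 in its other transcripts. The sums of 2 genes were called in the opposite direction to their transcript. IPO4-203, from an importin gene, fell from 5.65, 5.32 and 7.02 TPM to 1.15, 1.21 and 2.60 TPM while the other transcripts of IPO4 stood at 28.4 ± 1.67 and 40.6 ± 3.69 TPM. DMKN-252, from a gene best known in skin, was at or below 0.902 TPM with shLuc and at 4.68, 4.69 and 5.08 TPM with shHDAC1, beside 54.3 ± 3.01 and 37.3 ± 1.88 TPM in the other transcripts of DMKN. It too passed the filter through the shHDAC1 libraries only. IPO4-203 lost its call without any 1 library (adjusted p up to 0.153, limma), and PPP2R1B-211 and DMKN-252 kept theirs in 1 such fit each (up to 0.062 and 0.094).

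**Figure D3:**
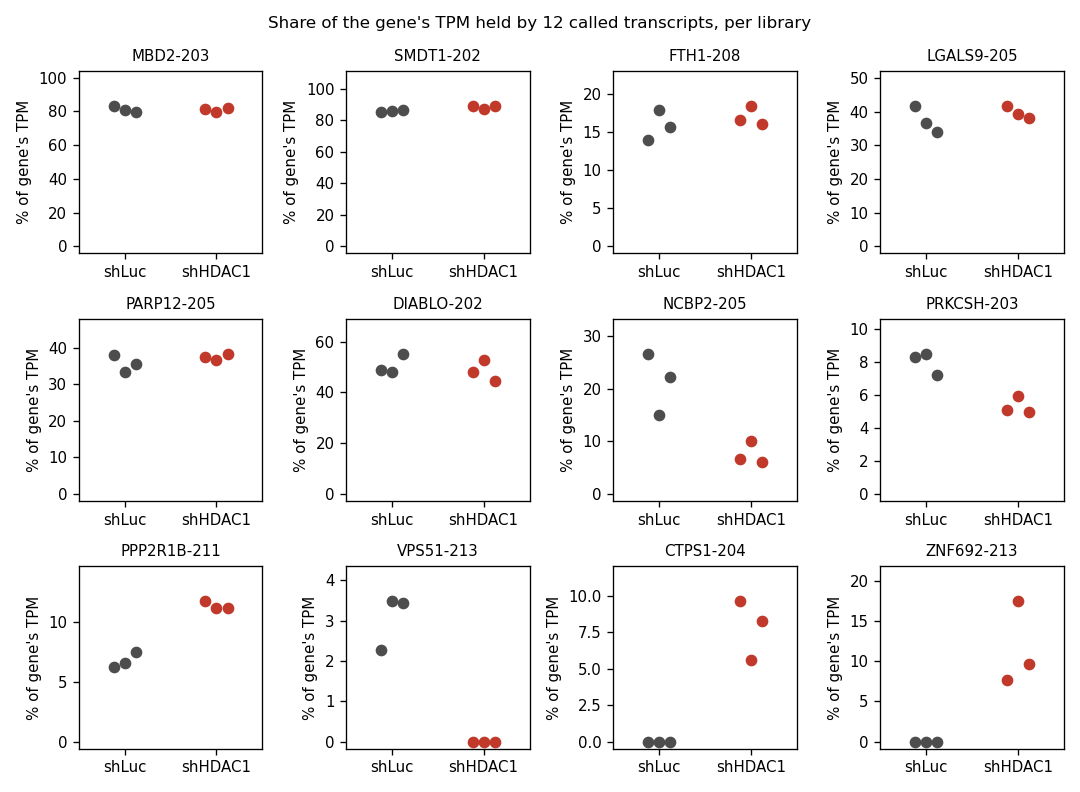
Each panel shows the percent of its gene's TPM held by a called transcript in the 3 shLuc and the 3 shHDAC1 libraries, with each vertical axis starting near 0; the 12 transcripts were chosen after their values were seen. In the panels of MBD2-203, FTH1-208, LGALS9-205, PARP12-205 and DIABLO-202 the groups overlap. In those of SMDT1-202, NCBP2-205, PRKCSH-203, PPP2R1B-211, VPS51-213, CTPS1-204 and ZNF692-213 they lie apart.

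The share of each transcript in its gene was tested across the 4391 transcripts that passed its filter, as log2 of the ratio of the transcript to the gene's other transcripts with 0.5 TPM added to each. By limma, 0 were called in either direction, and the smallest adjusted p was 0.073, reached by CTPS1-204, VPS51-213 and ATP6V0D1-212. Over all 46721 transcripts tested, 2 were called (0.00428%). At an unadjusted p below 0.05 stood 323 of the 4391 (7.36%), beside 7.61% of all transcripts tested. The median was -0.02 against -0.01 over all tested (log2). In data simulated with normal noise from the means and spread of these libraries, the test recovered 4.4% of transcripts changed 4-fold. It recovered 16.8% of those changed 8-fold, and 7.02% of its few calls were false. In that setting, where only a small part of the transcripts was changed, a change of isoform share of moderate size was mostly not detectable. The percent recovered can depend on how many transcripts change, and this was not varied.

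When all transcripts of a type were summed within a gene, a choice made after the values had been seen, 2923 sums of the decay type were tested. The sum of CTPS1 was called higher and 0 were called lower, with 211 at an unadjusted p below 0.05 (7.22%), beside 7.40% of sums of all types. The background was 5 of 17816 sums of all types (0.0281%), with 0.0112% higher and 0.0168% lower. The median gene held 5.25% to 5.94% of its TPM in transcripts of the type, depending on the library, over 4177 genes, and the libraries of the groups overlapped.

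Set by the call of their gene, the tested transcripts moved largely with it. A gene's sum includes the transcript and the gene's other transcripts, so part of this agreement was built in. It was built in more for a transcript that holds more of its gene, so percents of different types are not a like comparison. In genes called higher, 459 transcripts had a median difference of 0.38 (log2) and 78.6% were above 0. In genes called lower, 448 had a median of -0.38 and 78.8% were below 0. In the 2528 in genes not called, the median was 0.01, with 5 called higher and 12 lower. Protein-coding transcripts did so as well, with 85.9% of 4457 above 0 in genes called higher, 85.2% of 3262 below 0 in genes called lower, and 54 called higher and 60 lower among 17797 in genes not called. Beside the transcripts annotated to decay, the median difference of the gene's other transcripts was 0.45 and -0.40 in genes called higher and lower.

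Transcripts of splicing regulators are the best-known case of poison exons, and 41 such genes held 99 transcripts of the type. Of these, 51 were tested and 0 were called in either direction by limma, beside 3.33% of all transcripts tested. With so few tested, 0 calls do not set the list apart. The median difference was 0.02 (log2). For their share, 2 of 62 had an unadjusted p below 0.05, beside 7.61% of all transcripts tested. U2AF1-211, from the gene of the subunit of U2AF that reads the 3′ splice site, stood at 242, 240 and 236 TPM with shLuc and at 196, 208 and 220 TPM with shHDAC1, with 66.2% ± 0.965 and 64.8% ± 2.15 of the gene (SD, n = 3). The groups did not overlap in TPM, and the difference was not called (adjusted p = 0.14, limma). SRSF6-202, from a serine and arginine rich splicing factor gene, stood at 69.1, 63.2 and 65.5 TPM and at 73.6, 69.4 and 70.3 TPM, with 65.2% ± 2.53 and 67.6% ± 1.41 of the gene. TARDBP-203, from the gene of TDP-43, stood at 74.2, 76.6 and 77.8 TPM and at 71.4, 68.8 and 70.8 TPM. Summed over the list, transcripts of the type held 9.95% ± 0.53 and 10.0% ± 0.19 of the TPM.

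In the list of 28 ribosomal protein genes, 12 transcripts were tested, 0 were called and the median difference was 0.10. Transcripts of the type held 10.3%, 9.75% and 10.2% of the list's TPM with shLuc and 11.1%, 10.6% and 10.8% with shHDAC1, and these did not overlap. The list's TPM takes in all 28 genes, of which 11 had a transcript of the type, so this percent also moves with the other genes. In the list of 30 plasma cell and secretory genes, 14 transcripts were tested, 0 were called and the median was -0.26. As gene sums, 24 of the 30 were called lower, beside 10.3% of all genes tested. MZB1-205, from the gene of a chaperone of antibody assembly, stood at 375, 315 and 370 TPM with shLuc and at 245, 220 and 274 TPM with shHDAC1, with 23.7% ± 1.57 and 23.9% ± 2.83 of the gene (SD, n = 3). PDIA3-202, from the gene of a disulfide isomerase, stood at 271, 297 and 268 TPM and at 222, 226 and 202 TPM. In both the groups lay apart, and neither was called (adjusted p = 0.067 and 0.058, limma). The lists of decay factors, junction proteins, termination and decay genes and stress genes known as targets of the pathway had 6, 4, 6 and 5 transcripts tested and 0 called. Over all transcripts tested 3.33% were called, so 0 calls in a list of this paragraph do not set it apart.

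The factors of the pathway were compared as gene sums. Over all 11857 genes tested, 16.9% were called higher and 10.3% lower with shHDAC1. Of 16 core factors, 2 were called higher and 1 lower. RUVBL1, an ATPase that works with the kinase SMG1, was higher by 0.18 ± 0.06 (log2, SE; adjusted p = 0.048, limma), at 110 ± 2.55 TPM with shLuc and 125 ± 2.30 TPM after shHDAC1 (SD, n = 3). PNRC2, which links UPF1 to decapping, fell by 0.19 on the log2 scale, from 115 ± 3.23 TPM to 101 ± 1.63 TPM. Both calls were lost without any 1 library (adjusted p up to 0.139 and 0.116), and that of RUVBL1 also with median centring (0.366).

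UPF1 stood at 37.3, 34.2 and 38.6 TPM with shLuc and at 43.7, 31.5 and 33.6 TPM with shHDAC1, and the groups overlapped. UPF2, UPF3A and UPF3B, which bridge UPF1 to the junction complex, differed by 0.13, 0.04 and 0.06 (log2), and the kinase SMG1, SMG5 and the endonuclease SMG6 by 0.21, 0.07 and 0.30. None of these 7 was called. Of 10 junction complex genes, 2 were called higher and 2 lower. MAGOH, a core subunit, stood at 130 ± 4.50 TPM with shLuc and 192 ± 14.6 TPM with shHDAC1, and RBM8A, its partner in the core, at 440 ± 6.10 and 390 ± 13.8 TPM (SD, n = 3). Of 16 termination and decay genes tested, 0 were called higher and 3 lower. These were ETF1 and GSPT1, the release factors that end translation at a stop codon, which differed by -0.34 and -0.31, and the nuclear exonuclease XRN2, which differed by -0.39.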

How the data were processed

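For each library the authors deposited TPM by Ensembl transcript, per the file headers, with a total of 1000000. TPM is corrected for transcript length and relative to the library, so increases of some transcripts depress the rest. STAR, DESeq and hg19 appear in the submitters' processing notes; what made the TPM, and from which annotation, is not given in the sources used here. The library kit was NEBNext Ultra RNA, per the labels' protocols.

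Identifiers were matched to GENCODE 29 on GRCh38 without version numbers, and 159239 of 173259 (91.9%) matched, in 34500 genes. Transcripts were tested by limma 3.58.1 in R 4.3.3 with a variance trend on log2(TPM + 1), where 3 or more libraries reached 1 TPM, a scale that understates the change of low transcripts. Shares were tested as log2 ratios with 0.5 TPM added, and genes as sums. Adjustment was Benjamini-Hochberg over all features of each test, and the group was the only term. Named transcripts were the 10 most abundant and the 10 largest increases and decreases among calls whose groups did not overlap; other names were chosen after their values were seen. The members and the 9 gene lists were chosen with earlier results of these data known. Sequences were meant for calls by share, of which there were 0, so calls by TPM were used. No gene of chromosome Y is named. Some results are not reported here.

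Alternatives were other pseudocounts, filters and denominators, median centring, quantile normalization, the replicate number as a block and each library left out. Added after seeing the data were sums by type within a gene and the counts of calls at 0.1 TPM or more in every library and of calls that passed the filter through both groups. Tested on simulated data with normal noise, the TPM test over 39716 transcripts recovered 14.4% of 2-fold and 42% of 4-fold changes. Of its calls 4.46% were false, against 7.02% for the share test over 46721, above the 5% threshold. The share test made few calls there, so its percent is imprecise and cannot be told from 5%. The simulated noise did not reproduce values piled up at 0, and only a small part of the transcripts was changed in each simulated set. Scripts used Python 3.11.15 with pandas 2.3.3 and scipy 1.17.1.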

Additional observations from a re-analysis of the deposited data

Results flagged for a closer look

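Transcripts with no match in GENCODE 29 lie outside every comparison above. They held 2.72%, 2.72% and 2.73% of the TPM in the shLuc libraries and 3.14%, 3.16% and 3.12% in the shHDAC1 libraries, with means of 2.72% ± 0.0050 and 3.14% ± 0.018 (SD, n = 3; exact permutation p = 0.1, the smallest possible). The groups did not overlap, and what type these 14020 transcripts have is unknown here. With groups of 3 libraries, no library was tested as an outlier.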

How the results depend on the processing

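Of 30 members called higher and 39 lower by TPM, 18 and 17 were called without a filter, which ends the excess of lower calls, and 59 lower with median centring. With 1 library left out, higher calls ranged from 4 to 14 and lower calls from 3 to 15; a transcript near 0 in a whole group could be tested in 3 of the 6 such fits, since 3 libraries at 1 TPM were still required. With the replicate number as a block, 3 were called higher and 3 lower. The same-numbered libraries deviated together with correlations of -0.01, 0.17 and 0.08 across 39716 transcripts. Of the shLuc libraries, replicates 2 and 3 correlated best with the shHDAC1 library of their own number, and replicate 1 with shHDAC1 replicate 3 (0.07). Whether the numbers pair the samples cannot be told from such weak correlations. The share test called 0 members in each direction. It called 2 higher and 1 lower with a pseudocount of 2, 1 and 1 at a transcript mean of at least 2 TPM, 5 and 3 without a filter on the transcript, and 1 and 1 against coding and decay transcripts alone. The count stayed at 0 with the block and with each library left out. The 2 core factor genes called higher became 1 with a pseudocount of 0.1 and with median centring, and 1 to 2 with a library left out, and the 1 called lower became 0 in each fit with a library left out. The percent of TPM in decay transcripts differed by -0.089 percentage points, also with the replicate block, and by -0.160 among coding and decay transcripts alone; it ranged from -0.107 to -0.0713 with a library left out. The median share difference of the list of stress genes, -0.06 (log2), was 0.12 with a pseudocount of 2. For each of these the cause was not tested. Depth is unknown, and the low values near which many calls lie may carry more error than 3 libraries show.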
